A study of Mus musculus with 4 samples.

Results

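Potassium channel subunits were taken as the protein-coding genes whose symbol starts with Kcn and a further letter, other than *Kcnj8*, *Kcnj9* and *Kcnj10*, which gave 63 of the 21462 genes in the table. A mean of at least 10 normalized counts over the libraries was required for a test, which kept 50 of the 63. The 13 others had means of at most 6.0 and were *Kcna1*, *Kcna6*, *Kcnc4*, Kcne1l, *Kcng2*, *Kcng4*, *Kcnh4*, *Kcnh6*, *Kcnk7*, *Kcnk10*, *Kcnq3*, *Kcnu1* and *Kcnv2*. By known protein class, 43 of the 63 encode subunits that form a pore, 6 encode silent voltage-gated (Kv) subunits that conduct only together with other Kv subunits, and 14 encode accessory or regulatory proteins.

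Potassium channels let K+ leave the cell and so pull the membrane potential of smooth muscle towards negative values, which keeps voltage-gated Ca2+ channels closed and the muscle relaxed. Large-conductance (BK) channels open on Ca2+ and depolarization, Kv channels on depolarization, inward rectifiers (Kir) pass current mainly near rest, and two-pore-domain (K2P) channels carry leak current. Accessory subunits set gating, Ca2+ sensitivity and trafficking of the pores.

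The libraries came from lung cells of C57BL/6 mice, 2 from *Tet3* mutants and 2 from controls. TET3 oxidizes 5-methylcytosine in DNA. According to the study's methods, *Tet3* fl/fl was recombined by a tamoxifen-inducible α-SMA ERT2Cre in adult mice, and controls lacked the floxed allele but carried the Cre and/or the reporter. The methods describe the tamoxifen injections without saying whether controls received them. Cells carrying the ROSA26 tdTomato reporter were sorted after depletion of CD45+ and Ter-119+ cells, so that airway and vascular smooth muscle were not separated and any cell in which the α-SMA driver was active could be included. The labels give no sex, age or batch, and the time between tamoxifen and sampling is not given for these libraries. The p-values below measure the spread between these 4 samples.

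*Tet3* itself measured 1847 and 1926 normalized counts in controls 1 and 2 and 1534 and 1444 in mutants 1 and 2, a log2 fold change of −0.34 over the whole gene, counted across exons that may include undeleted ones. The scaled libraries summed to between 6805272 and 7164573, and their sequencing depth before scaling is unknown. All 10 smooth muscle markers were present and their sum ran from 5108 to 7952, but 8 alveolar type 2 markers summed to between 10486 and 22564. Control 2 stood apart: *Ddx3y*, a Y-linked gene, measured 0, 774, 0 and 0 in controls 1 and 2 and mutants 1 and 2, against 6781, 2, 6542 and 5214 for *Xist*, and its 8 T cell markers summed to 149 against 665 to 697 elsewhere. Sex and the individual library thus cannot be told apart within the control group, and values with a library left out are given beside the fold changes and medians that shrank most or changed sign. Since bulk RNA was measured, fewer cells of a type and less RNA per cell cannot be told apart.

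Sequence around the start sites is shown for 5 of the 6 members with the smallest unadjusted p-values, because the enzyme inactivated here acts on methylated cytosine, which in mammals lies mostly in CG pairs. Each run holds 250 bases before and 50 after the RefSeq start on GRCm38.p6, 5′ to 3′ on the gene's strand, with CG in capitals. Methylation was not measured in these libraries. The windows are chr16:95257308-95257607 (plus strand) for *Kcnj15*, chr11:111065914-111066213 (plus) for *Kcnj2*, chr14:20181733-20182032 (minus) for *Kcnk5*, chr1:140245468-140245767 (plus) for *Kcnt2* and chr10:116473474-116473773 (minus) for *Kcnmb4*. The sixth, *Kcnk2*, has 4 listed starts and is not shown.
Kcnj15: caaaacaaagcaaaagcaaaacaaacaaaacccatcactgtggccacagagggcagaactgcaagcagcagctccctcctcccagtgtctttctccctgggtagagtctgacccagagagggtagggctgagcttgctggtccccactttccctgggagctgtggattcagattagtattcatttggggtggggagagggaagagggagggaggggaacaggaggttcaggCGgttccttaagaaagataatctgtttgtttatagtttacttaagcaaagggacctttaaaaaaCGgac
Kcnj2: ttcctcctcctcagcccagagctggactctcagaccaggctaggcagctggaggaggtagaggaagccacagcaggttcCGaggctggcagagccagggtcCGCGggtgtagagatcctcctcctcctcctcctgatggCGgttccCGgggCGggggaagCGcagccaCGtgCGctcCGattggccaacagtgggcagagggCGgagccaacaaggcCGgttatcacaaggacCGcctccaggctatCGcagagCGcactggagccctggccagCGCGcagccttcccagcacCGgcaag
Kcnk5: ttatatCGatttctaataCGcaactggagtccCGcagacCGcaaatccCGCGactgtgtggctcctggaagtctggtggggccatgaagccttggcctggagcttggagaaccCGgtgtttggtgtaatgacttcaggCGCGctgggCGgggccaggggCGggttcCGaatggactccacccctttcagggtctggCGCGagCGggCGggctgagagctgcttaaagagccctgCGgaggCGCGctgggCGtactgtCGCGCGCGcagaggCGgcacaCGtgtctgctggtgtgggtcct
Kcnt2: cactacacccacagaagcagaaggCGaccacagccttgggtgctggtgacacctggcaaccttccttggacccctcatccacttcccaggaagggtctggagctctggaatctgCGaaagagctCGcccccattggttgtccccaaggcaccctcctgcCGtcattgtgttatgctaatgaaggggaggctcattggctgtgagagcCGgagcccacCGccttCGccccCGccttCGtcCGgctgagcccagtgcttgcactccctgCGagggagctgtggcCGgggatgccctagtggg
Kcnmb4: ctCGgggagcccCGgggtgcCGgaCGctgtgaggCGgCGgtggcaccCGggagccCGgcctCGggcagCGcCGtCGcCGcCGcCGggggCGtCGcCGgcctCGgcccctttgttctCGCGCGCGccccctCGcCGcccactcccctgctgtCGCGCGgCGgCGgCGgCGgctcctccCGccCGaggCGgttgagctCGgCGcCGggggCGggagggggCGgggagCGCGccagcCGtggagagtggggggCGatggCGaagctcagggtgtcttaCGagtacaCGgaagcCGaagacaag

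The windows differed widely in CG content. That of *Kcnj15* held 2 CG, and 86.2% of the 27025 genes in the RefSeq table have at least as many. That of *Kcnj2* held 18 (32.1% of genes), that of *Kcnk5* held 26 (18.5%), that of *Kcnt2* held 12 (42.0%) and that of *Kcnmb4* held 48, a number reached by 1.4% of genes. The members lower in the mutants thus included both a CG-poor and CG-rich windows. Across the 46 members with an entry, counts ran from 1 to 48 with a median of 12, against a median of 8 over all genes, taking the richest start where a gene had several. CG, which reads the same on either strand, was found at least once in the windows of 94.6% of all genes.

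Potassium channel genes supplied a small part of the RNA, and less in the mutants. The 63 genes summed to 8702 and 11011 normalized counts in controls 1 and 2 and to 7014 and 8088 in mutants 1 and 2, which was 0.124%, 0.154%, 0.102% and 0.119% of the libraries. Both mutants lay below both controls. Per kilobase of exon, the mean level over the 4 libraries was highest for *Kcnj15* (172, with 250 in the controls and 93.6 in the mutants), followed by *Kcne2* (143), *Kcns3* (120), *Kcnj2* (110) and *Kcne4* (108). The controls differed by more than 2-fold for *Kcnj15*, *Kcne2* and *Kcnj2*, so the order of these neighbours was not fixed by the replicates, and in the mutants *Kcns3* (135) and *Kcne4* (123) exceeded *Kcnj15*. *Kcnma1*, the pore of the BK channel, ranked 45th of 63, level with *Kcnn2*, with a mean of 4.15 per kilobase. Its smooth muscle partner *Kcnmb1* reached 15.0. The rank of *Kcnma1* depends on its 16976 annotated exon bases, the most of any member, since its mean was 70.5 normalized counts.

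**Figure D1:**
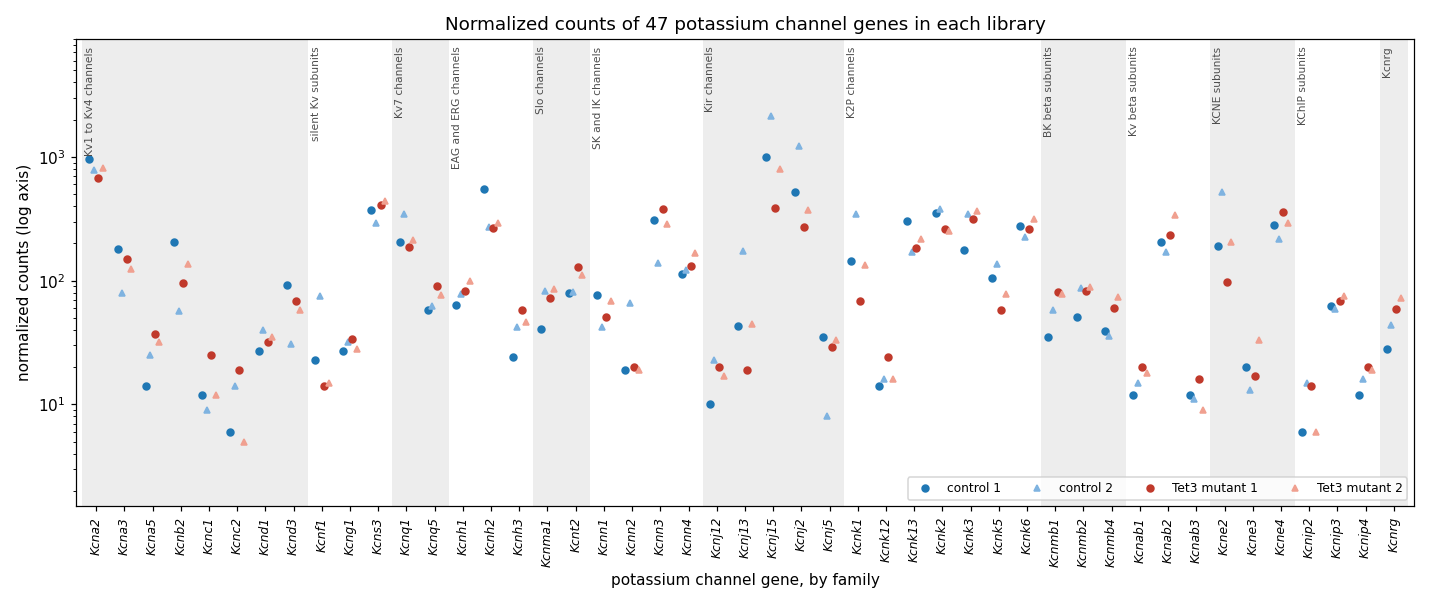
Normalized counts (log axis) of 47 of the 50 tested potassium channel genes, 1 point per library: blue for the 2 controls, red for the 2 *Tet3* mutants, circles for replicate 1 and triangles for replicate 2, with genes grouped by family on shaded bands. Control 2 lies more than 2-fold above every other library for 7 of these genes, *Kcnj15* (2161) and *Kcnj2* (1235) among them, and more than 2-fold below for *Kcnj5* and *Kcnn3*.

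No potassium channel gene passed the adjusted threshold between *Tet3* mutants and controls. With limma and Benjamini-Hochberg adjustment over all 16659 genes tested, 0 genes were called (0.0%), members included, and the smallest adjusted p of a member was 0.681. At an unadjusted p under 0.05, 2 members were higher (*Kcnt2* and *Kcnmb4*) against 3.83% of all genes, and 4 were lower (*Kcnj15*, *Kcnj2*, *Kcnk5* and *Kcnk2*) against 2.85%. Without control 2, 8 members had an unadjusted p under 0.05 (5.37% of all genes), and of the 6 above *Kcnk2* was the one among them. The count was 17 without control 1, when 20.2% of all genes reached it, 1 without mutant 1 and 0 without mutant 2. Without regard to a p-value, 35 of the 50 had a fold change above 0 and 15 below, with a median log2 fold change of 0.21, while the median of all genes tested was −0.01, with 8156 above 0. Both mutants exceeded both controls for 16 members (19.6% of all genes did so) and lay below both for 7 (19.5% of all genes), and the groups overlapped for 27. Leaving out each library in turn moved the members' median between 0.17 and 0.30, and 32 of the 50 members kept their direction in all 4 of these fits, 21 of them higher and 11 lower.

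**Figure D2:**
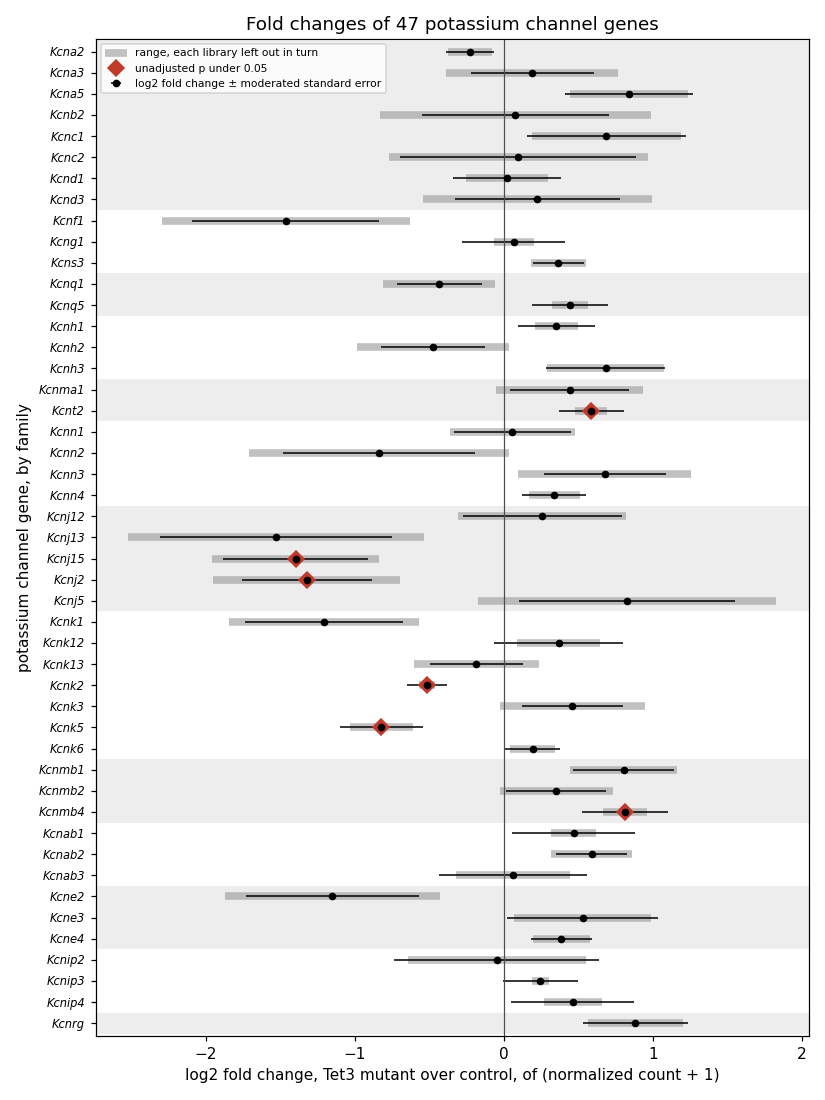
Log2 fold change (*Tet3* mutant over control, of normalized count + 1) of 47 of the 50 tested genes by family, with points and black bars for the limma estimate ± moderated standard error, grey bars for the range when each library is left out in turn, and diamonds for the 6 genes with an unadjusted p under 0.05. The lowest estimates drawn are those of *Kcnj13* (−1.53), *Kcnf1* (−1.46), *Kcnj15* (−1.40) and *Kcnj2* (−1.32), and their grey bars are among the longest.

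The inward rectifiers held some of the lowest fold changes. *Kcnj15*, the pore-forming subunit Kir4.2, measured 991 and 2161 normalized counts in controls 1 and 2 and 389 and 793 in mutants 1 and 2. Both mutants lay below both controls, and the controls themselves differed 2.18-fold. Its log2 fold change (± SE) was estimated at −1.40 ± 0.488 (unadjusted p = 0.0346, limma adjusted p = 0.681), and −0.83 without control 2. *Kcnj2* encodes Kir2.1, the strong inward rectifier that in resistance arteries responds to raised extracellular K+. It measured 517 and 1235 in the controls and 271 and 376 in the mutants, again without overlap. For this gene the log2 fold change (± SE) was estimated at −1.32 ± 0.435 (unadjusted p = 0.0282, limma adjusted p = 0.681), and −0.69 without control 2. *Kcnj13*, or Kir7.1, measured 43 and 173 in the controls and 19 and 45 in the mutants, so the groups overlapped, and 49.1% of its exon bases lie under exons of *Gigyf2* on the opposite strand. The other family members were weak: *Kcnj12* ran from 10 to 23 and *Kcnj5* from 8 to 35, both with overlap. Over the 5 Kir genes the median log2 fold change was −1.32, and −0.54 without control 2. Per kilobase, Kir genes made up 16.5% and 28.9% of the summed level of all potassium channel genes in the controls and 9.36% and 13.8% in the mutants, without overlap.

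**Figure D3:**
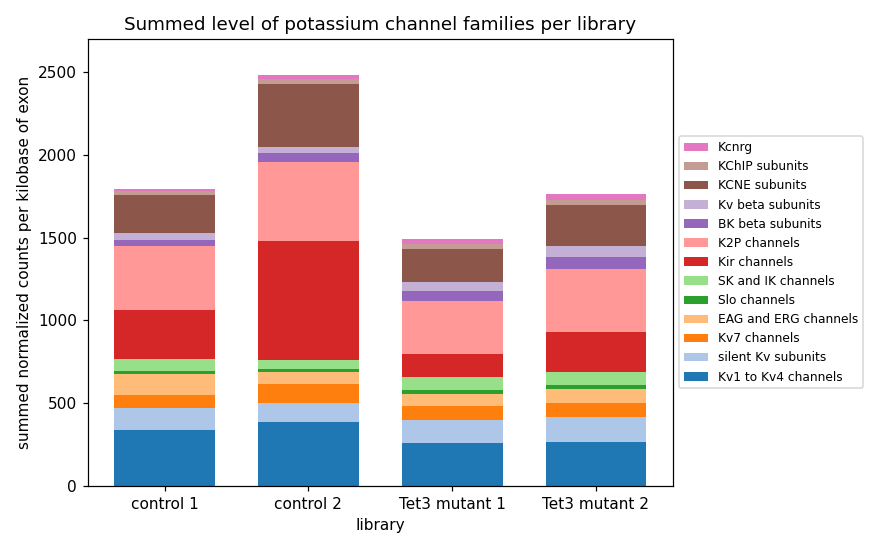
Normalized counts per kilobase of exon summed over each potassium channel family in each of the 4 libraries, as stacked bars starting at 0. The Kir segment is 297 and 715 in the controls and 140 and 243 in the *Tet3* mutants, and the BK beta segment is 36.4 and 52.5 against 63.6 and 69.3.

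K2P genes, which encode leak channels, were mixed. *Kcnk2* encodes TREK-1, a channel opened by membrane stretch, and measured 353 and 381 in the controls and 262 and 251 in the mutants. The replicates lay close together in each group, with means of 367.0 ± 19.8 and 256.5 ± 7.78 (SD, n = 2). Its log2 fold change (± SE) was estimated at −0.51 ± 0.135 (unadjusted p = 0.0123, limma adjusted p = 0.681), and between −0.57 and −0.46 with any 1 library left out. Exons of *A430027H14Rik* on the opposite strand cover 12.2% of its exon bases. *Kcnk5* encodes the acid-sensitive channel TASK-2 and measured 105 and 136 in the controls and 58 and 78 in the mutants. Its groups did not overlap, and the log2 fold change (± SE) was estimated at −0.82 ± 0.279 (unadjusted p = 0.0318, limma adjusted p = 0.681). *Kcnk1*, or TWIK-1, measured 143 and 348 in the controls and 69 and 134 in the mutants, a log2 fold change of −1.21 that became −0.57 without control 2. *Kcnk3*, the acid-sensitive TASK-1 channel that sets resting potential in pulmonary artery muscle, measured 177 and 349 in the controls and 318 and 369 in the mutants. Its groups overlapped, and its log2 fold change of 0.46 turned to −0.03 without control 1. The remaining K2P genes *Kcnk6*, *Kcnk12* and *Kcnk13* overlapped between groups. Per kilobase, the family summed to 388 and 480 in the controls and 318 and 383 in the mutants, so both mutants lay below both controls, mutant 2 narrowly. Over all potassium channel genes the sums were 1800 and 2480 against 1490 and 1760. The family's share was therefore nearly level, at 21.6% and 19.4% in the controls and 21.3% and 21.7% in the mutants.

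Among the voltage-gated pores, none had an unadjusted p under 0.05. *Kcna2*, the Kv1.2 pore, measured 959 and 783 in the controls and 675 and 812 in the mutants, a log2 fold change of −0.23, or −0.08 without control 1. *Kcna5*, the Kv1.5 pore of pulmonary artery muscle, was lowly expressed at 14 and 25 in the controls and 37 and 32 in the mutants. Both mutants exceeded both controls, but the log2 fold change of 0.84 ± 0.430 (SE) did not pass (unadjusted p = 0.107, limma adjusted p = 0.684) and was 0.45 without control 1. *Kcna3*, the Kv1.3 channel known from T lymphocytes, measured 179 and 80 in the controls and 150 and 125 in the mutants and was lowest in control 2. Marker sums of T cells, B cells, macrophages, neutrophils and fibroblasts, among others, were lowest there as well. The part of any cell type in this value was not tested. Of the 10 tested Kv1 to Kv4 genes, 8 were above 0 and 2 below, with a median log2 fold change of 0.14 that became 0.61 without control 1 and −0.38 without control 2.

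The silent subunits and the Kv7, EAG and ERG families held no member at an unadjusted p under 0.05. *Kcns3*, the silent subunit Kv9.3, measured 376 and 290 in the controls and 410 and 443 in the mutants. Both mutants lay above both controls, with a log2 fold change of 0.37 ± 0.172 (SE) (unadjusted p = 0.0851, limma adjusted p = 0.681), and 0.18 without control 2. *Kcnf1*, a silent subunit too, measured 23 and 75 in the controls and 14 and 15 in the mutants, a log2 fold change of −1.46 that became −0.63 without control 2. *Kcnq1* and *Kcnq5* encode Kv7 channels, which carry resting K+ current in vascular muscle. *Kcnq1* measured 207 and 349 in the controls and 186 and 213 in the mutants, with overlap. *Kcnq5* measured 58 and 63 in the controls and 90 and 76 in the mutants. Both mutants were thus above both controls, by 0.45 on the log2 scale (limma adjusted p = 0.689). Among the EAG and ERG genes, *Kcnh3* measured 24 and 42 in the controls and 58 and 46 in the mutants without overlap, while *Kcnh2*, the ERG1 channel, measured 551 and 271 against 266 and 290 and overlapped.

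All 4 tested BK genes had fold changes above 0, although those of *Kcnma1* and *Kcnmb2* fell just below 0 without control 1. *Kcnma1*, the BK pore, measured 41 and 82 normalized counts in the controls and 73 and 86 in the mutants, so the groups overlapped, and its log2 fold change of 0.44 became −0.05 without control 1. *Kcnmb1*, the beta subunit that raises the Ca2+ sensitivity of the BK channel in smooth muscle, measured 35 and 58 in the controls and 81 and 78 in the mutants. Both mutants exceeded both controls, with a log2 fold change of 0.80 ± 0.340 (SE) (unadjusted p = 0.0633, limma adjusted p = 0.681), and 0.45 without control 1. *Kcnmb4*, a beta subunit best known from neurons, measured 39 and 36 in the controls and 60 and 74 in the mutants. For this gene the log2 fold change (± SE) was estimated at 0.81 ± 0.291 (unadjusted p = 0.0374, limma adjusted p = 0.681), and 31.5% of its exon bases lie under the antisense genes *Kcnmb4os1* and *Kcnmb4os2*. *Kcnmb2* measured 51 and 87 in the controls and 82 and 89 in the mutants, with overlap and a log2 fold change of 0.35, or −0.03 without control 1. The level per kilobase of *Kcnmb1* relative to *Kcnma1* was 3.46 and 2.87 in the controls and 4.49 and 3.67 in the mutants, higher in both mutants, but 2 against 2 libraries allow no exact permutation p below 0.333. As a share of the summed level per kilobase, the 3 beta subunits made up 2.03% and 2.12% in the controls and 4.26% and 3.93% in the mutants. *Kcnt2*, which encodes the Na+-activated channel SLICK of the same Slo family, measured 79 and 81 in the controls and 130 and 112 in the mutants. The groups did not overlap, and the log2 fold change (± SE) was estimated at 0.59 ± 0.219 (unadjusted p = 0.0434, limma adjusted p = 0.681).

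Of the Ca2+-activated channels of small and intermediate conductance, *Kcnn4* was the one whose groups did not overlap. *Kcnn3*, or SK3, measured 309 and 138 in the controls and 383 and 286 in the mutants, with a log2 fold change of 0.68, and 0.10 without control 2. *Kcnn4*, the intermediate-conductance channel of proliferating smooth muscle and of blood cells, measured 114 and 121 in the controls and 132 and 168 in the mutants, without overlap and with a log2 fold change of 0.34 (limma adjusted p = 0.707), or 0.17 without mutant 2. *Kcnn1* measured 76 and 42 in the controls and 51 and 68 in the mutants, which overlapped.

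Accessory genes lay mostly above 0. Of 13 tested accessory genes, 11 had a fold change above 0, both mutants exceeded both controls for 8 and lay below both for 0, and the median log2 fold change was 0.46. Of 34 tested pore genes, 22 were above 0, with 7 above both controls and 6 below, and a median of 0.17 that turned to −0.01 without control 2. Across all genes 19.6% lay above both controls and 19.5% below. Both medians stand beside −0.01 for all genes, and the difference between the classes was not tested. *Kcnrg*, which interferes with the assembly of Kv channels, measured 28 and 44 in the controls and 59 and 73 in the mutants, a log2 fold change of 0.88 ± 0.354 (SE) (unadjusted p = 0.0541, limma adjusted p = 0.681), or 0.57 without control 1. The Kv beta gene *Kcnab2* measured 205 and 171 in the controls and 234 and 341 in the mutants, and *Kcnab1* measured 12 and 15 against 20 and 18, both without overlap. *Kcne4*, whose product inhibits Kv1 channels and modulates Kv7 channels, measured 283 and 217 in the controls and 362 and 290 in the mutants, with a log2 fold change of 0.39, or 0.19 without control 2 and 0.23 without mutant 1. Its level per kilobase relative to *Kcnq1* was 2.11 and 0.958 in the controls and 3.0 and 2.1 in the mutants, with overlap. *Kcne2*, known as a partner of KCNQ1 in epithelia, was an exception: it measured 191 and 519 in the controls and 98 and 204 in the mutants, with overlap and a log2 fold change of −1.15, or −0.43 without control 2. Accessory genes made up 19.2% and 21.1% of the summed level per kilobase in the controls and 25.3% and 25.7% in the mutants. Their summed level itself overlapped, at 344 and 523 in the controls and 377 and 453 in the mutants. That of the pore genes was lower in both mutants, at 1320 and 1840 against 972 and 1160.

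Of the 13 genes with known roles in smooth muscle, 10 had fold changes above 0 and 3 below (*Kcnj2*, *Kcnq1* and *Kcna2*), with a median log2 fold change of 0.44. Both mutants exceeded both controls for 6 of them and lay below for 1, *Kcnj2*, against 19.6% and 19.5% of all genes. The 10 smooth muscle markers moved alongside: all 10 had a fold change above 0, 4 at an unadjusted p under 0.05, with a median of 0.52, or 0.29 without control 1, and their sum was 5108 and 6747 in the controls and 7952 and 7612 in the mutants. The study reports more reads but less full-length mRNA in the mutants for contractile genes such as *Acta2* and *Cnn1*, which are among these markers. Their sum is therefore no plain measure of smooth muscle content. Per 1000 summed smooth muscle marker counts, *Kcnmb1* measured 6.85 and 8.6 in the controls and 10.2 and 10.2 in the mutants, and *Kcna5* measured 2.74 and 3.71 against 4.65 and 4.2. On that scale, computed after the values were seen, 5 of the 16 members with both mutants above both controls remained so, 10 overlapped, *Kcnt2*, *Kcnmb4* and *Kcnq5* among them, and 1 turned lower. Among those that remained, the gap was small for the weakly expressed *Kcnab1* and *Kcnip4*. *Kcnab1* measured 2.35 and 2.22 in the controls and 2.52 and 2.36 in the mutants, and *Kcnip4* measured 2.35 and 2.37 against 2.52 and 2.5. Other markers also moved upwards, with ciliated cell markers summing to 2700 and 3021 in the controls and 5220 and 3523 in the mutants, neutrophil markers to 1059 and 816 against 1939 and 1304, and macrophage markers to 7211 and 6103 against 7901 and 9499. Their part in these values was not tested.

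For 9 of the 50 tested members control 2 was highest and mutant 1 lowest, among them *Kcne2*, *Kcnf1*, *Kcnj13*, *Kcnj15*, *Kcnj2*, *Kcnk1*, *Kcnk5* and *Kcnq1*, which is 18.0% against 15.0% of all genes tested. These 9 included 6 of the 7 members with both mutants below both controls. Control 2 lay more than 2-fold above or below all other libraries for 10 members, 20.0% against 6.0% of all genes. The sum of alveolar type 2 markers had the same order, with 15029 and 22564 in the controls and 10486 and 13488 in the mutants. Not every single marker did: *Sftpc* measured 825 and 1254 against 904 and 780. The alveolar type 1 sum and the weak Schwann cell and neuron sum (100 and 144 against 86 and 106) had this order too. None of the 8 alveolar type 2 markers had a fold change above 0, 4 were lower at an unadjusted p under 0.05, and their median log2 fold change was −0.60, or −0.37 without control 2. The 6 alveolar type 1 markers summed to 2519 and 4353 in the controls and 1802 and 2739 in the mutants, with overlap. They were mixed: 2 of them, *Hopx* and *Pdpn*, had a fold change above 0. At an unadjusted p under 0.05, 1 was higher and 0 were lower. Per 1000 summed alveolar type 2 marker counts, *Kcnj15* measured 65.9 and 95.8 in the controls and 37.1 and 58.8 in the mutants, and *Kcnj2* measured 34.4 and 54.7 against 25.8 and 27.9. On that scale, also computed after the values were seen, 5 of the 6 with both mutants below both controls remained so (*Kcnf1*, *Kcnj15*, *Kcnj2* and *Kcnk5* among them) and *Kcnk1* overlapped. The gap was small for *Kcnk5*, at 6.99 and 6.03 in the controls and 5.53 and 5.78 in the mutants. It was small too for the weakly expressed *Kcnf1*, at 1.53 and 3.32 against 1.34 and 1.11. *Kcne2* and *Kcnj13* overlapped on both scales, and *Kcnq1*, which overlapped in normalized counts, was higher. *Kcnk2*, whose highest and lowest libraries were control 2 and mutant 2, lay outside this order. The part of alveolar cells in these values was not tested.

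**Figure D4:**
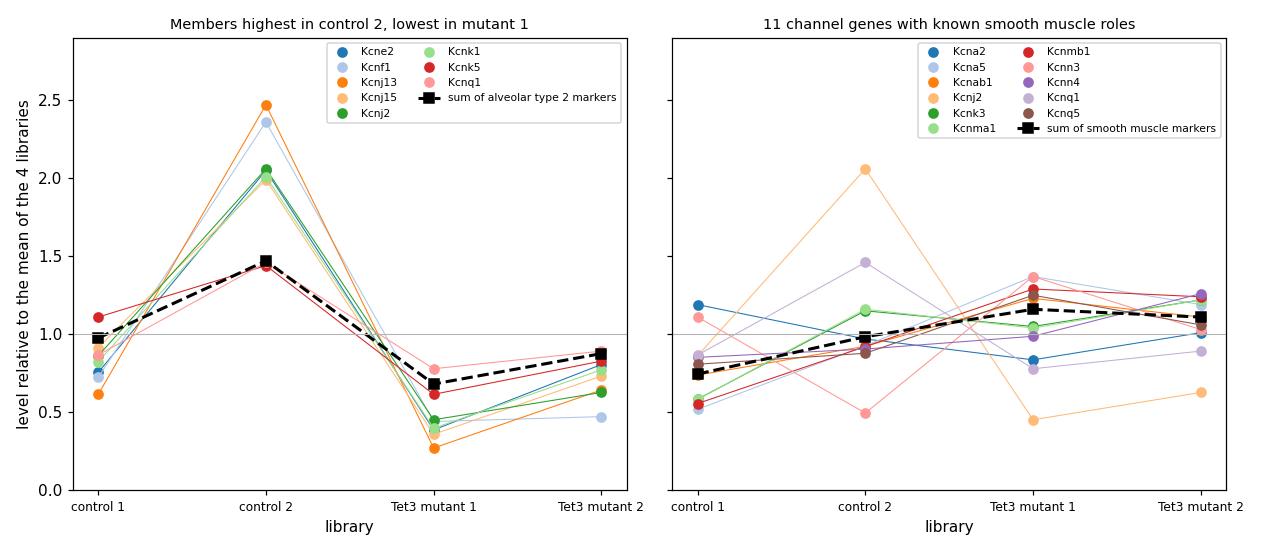
Level in each library relative to the gene's own mean over the 4 libraries (1 on the axis), for 8 of the 9 members highest in control 2 and lowest in mutant 1 (left) and for 11 of the 13 genes with known smooth muscle roles (right). Black squares show the summed alveolar type 2 markers on the left and smooth muscle markers on the right. In control 2 the left-hand genes reach up to 2.47 times their mean, and the marker sum 1.47 times.

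The study lists 8 potassium channel genes among those it calls spuriously transcribed, and 7 are in the table. That list was drawn up by the study and is no independent evidence of direction. Of the 6 tested, 4 had fold changes above 0 and 2 below, with a median log2 fold change of 0.04 that was below 0 with any 1 library left out (−0.12 to −0.03), and *Kcnk5*, which was lower, was the one with an unadjusted p under 0.05. *Kcnd1*, the Kv4.1 pore, measured 27 and 40 in the controls and 32 and 35 in the mutants, and *Kcnab3* measured 12 and 11 against 16 and 9. *Kcnh6* measured 6 and 1 in the controls and 1 and 2 in the mutants and was not tested. These are whole-gene counts and do not separate transcripts by where they start.

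Among 16 fixed partner and related genes outside the family, 14 were in the table and 9 were tested, 8 of them with a fold change above 0 and 1 below, and none passed the adjusted threshold. *Dpp6*, a partner of Kv4 channels, measured 18 and 21 in the controls and 46 and 51 in the mutants, with a log2 fold change of 1.27 (unadjusted p = 0.0121, limma adjusted p = 0.681). The groups were well apart, whereas the Kv4 pores *Kcnd1* and *Kcnd3* overlapped. *Abcc9*, the sulphonylurea receptor of vascular ATP-sensitive channels, measured 1550 and 989 in the controls and 1699 and 1772 in the mutants, with a log2 fold change of 0.49 (limma adjusted p = 0.681). *Amigo1*, a partner of Kv channels, overlapped between the groups at 456 and 479 against 429 and 535.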

How the data were processed

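RNA of 4 libraries of sorted mouse lung smooth muscle cells was analysed, 2 Tet3 mutant and 2 control. Libraries were made from total RNA with a strand-marking kit after ribosomal depletion. Per the labels, the authors used FastQC, Trimmomatic 0.36, STAR 2.6.0c and featureCounts of Subread 1.6.0 on mm10. The strand setting of the counting is not given in the sources used here. The deposited values are a score, namely gene-level counts scaled by the authors with DESeq2 and then rounded, called normalized counts here. Raw counts were not used here, so no count model was run.

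Values were analysed as log2(value + 1) for genes with a mean of at least 10, with group as the one term, by the trended empirical Bayes fit of limma 3.58.1 (R 4.3.3). The Benjamini-Hochberg adjustment covered every gene tested, with 0.05 as the limit. Fold changes are on that log2 scale, which understates the change of low genes. The script was tested on simulated data. Exon lengths came from GENCODE M21, where 63 members matched by identifier and 61 had the same coordinates as in the table, and promoters from RefSeq, where 46 matched. The members and lists were chosen with earlier results of these data known. The rule for named genes took members with an unadjusted p under 0.05, the 5 highest per kilobase, 13 with known smooth muscle roles, those on the study's list of spuriously transcribed genes, and the 5 higher and 5 lower non-overlapping members with the largest fold change. Other members were named after their values were seen, to complete their families. A few members counted in the totals are not reported here one by one. Alternatives were other pseudocounts, minimum means and scalings, no trend, a replicate block and leaving out each library in turn.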

Additional observations from a re-analysis of the deposited data

How the results depend on the processing

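Each of the 8 processing alternatives was run for 26 members named by the rule, and none changed direction where it was still tested. The minimum means, the fit without trend and the replicate block leave a fold change as it was by design. Only the pseudocounts and scalings could thus have changed a direction. The number of members at an unadjusted p under 0.05, 6 in the limma fit reported, was 6 with a pseudocount of 0.5 or 8 and with TMM factors, 7 with a minimum mean of 1 and 4 with a minimum mean of 50, where 0 were higher. Equal library totals gave 9, of which 5 were higher. Without the mean-variance trend 5 members were below that p, 2 of them lower, and 1 gene of all tested passed the adjusted threshold. No member passed it under any alternative.

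With the replicate block, 11 members were at an unadjusted p under 0.05, 9 of them lower, 4 shared with the fit reported, and 9.83% of all genes reached it. After the group means were subtracted, same-numbered libraries correlated at 0.134. With 2 libraries a group, replicates 1 and 2 give the same value by construction. It cannot tell whether the numbers pair the libraries.

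With each library left out in turn, where a lone sample is assumed to vary like the other group, the count of members ran from 0 to 17, of higher members from 0 to 6, of lower members from 0 to 11, and the members' median from 0.17 to 0.30. It was 17 without control 1 (20.2% of all genes), 8 without control 2, of which Kcnk2 was shared with the fit reported, 1 without mutant 1 and 0 without mutant 2. Of 26 members tested under the rule for named genes, 21 kept their direction and 5 did not: Kcnab3 (−0.32 to 0.44), Kcnd1 (−0.25 to 0.30), Kcnk3 (−0.0268 to 0.95), Kcnma1 (−0.0488 to 0.93) and Kcnn1 (−0.36 to 0.48). The cause was not tested. With 2 libraries a group, and the depth before scaling unknown, differences in weakly expressed members such as Kcna5, Kcnab1 and Kcnf1 were not separable from replicate spread.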
